A study of Mus musculus with 4 samples.

Results

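Sugar and monocarboxylate transporters were examined as the genes whose symbols belong to the solute carrier families Slc2a, Slc5a, Slc16a, Slc17a and Slc37a. These genes were measured by array in cDC2 labelled as splenic and as wild type (WT) or Id2 knockout (Id2 KO). Members were taken by symbol alone, from probe sets annotated to exactly 1 gene, with the brightest probe set used for a gene that had several. The rule found 52 of 19938 genes, with 13 symbols each in Slc2a, Slc5a and Slc16a, 9 in Slc17a and 4 in Slc37a. One of the 52, Slc2a4rg-ps, is a pseudogene named after a regulator of Slc2a4 and not a transporter. The families also hold carriers of other cargo, among them iodide, vitamins, glutamate, nucleotides and phosphate, so the name sugar and monocarboxylate transporters fits only part of them.

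Glucose enters most cells by facilitated diffusion through the GLUT proteins of the Slc2a family, or together with sodium through members of Slc5a. The Slc16a family includes the proton-coupled monocarboxylate transporters (MCTs), which carry lactate, pyruvate and ketone bodies across the plasma membrane with the help of the chaperone proteins basigin and embigin. Several Slc37a proteins exchange sugar phosphates in the endoplasmic reticulum, and Slc17a proteins carry organic anions into or out of vesicles and lysosomes. Dendritic cells are known to raise glucose uptake and lactate release when they are activated. By their labels, the cells here came from the spleen.

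The cDC2 are a class of conventional dendritic cells specialised in antigen presentation to CD4 T cells, and Id2 is a protein that binds E-protein transcription factors and keeps them off DNA. There were 2 arrays from Zbtb46-GFP chimeric mice (WT) and 2 from Id2 KO Zbtb46-GFP chimeric mice, and both groups thus bear the label Zbtb46-GFP, a reporter whose green fluorescence follows expression of the conventional dendritic cell factor Zbtb46. The labels give no age, sex or number of mice and do not say how the chimeras were made, which deletion the Id2 KO allele carries or whether the replicates came from separate animals, and the p-values therefore describe variation among these 4 samples, whose origin may be technical. The labels name the spleen as the tissue, while the series' design text also mentions bone marrow.

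Array medians lay between 128 and 134 intensity units. The Id2 probe set differed by -0.27 on the log2 scale between the groups without passing the test (limma, adjusted p = 0.172), so the groups are called by their labels throughout. Xist was 11.96 on both WT arrays and 6.67 and 6.68 on the Id2 KO arrays, and the Y-linked Kdm5d was higher by 2.66 in Id2 KO, so genotype and the sex-linked levels cannot be told apart. All 11 markers of conventional dendritic cells had means over all arrays above the level used as a filter. Of these Ccr7 was higher, Zbtb46 lower and the other 9 did not pass. Zbtb46 was at 7.57 and 7.55 in WT and at 6.49 and 6.59 in Id2 KO (difference -1.02). Both Id2 KO values of Zbtb46 thus lay below the filter level (log2 6.77). Of 13 tested cDC2 markers, 6 were lower in Id2 KO, among them Clec4a3 (-0.90), and 2 higher.

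Transporter genes that changed were lower in Id2 KO. Of the 52 members, 25 had a mean above the level set as a filter on dim genes (log2 6.77, the 40th percentile of all genes) and were tested, and 4 of these 25 fell and none rose at an adjusted p under 0.05. The 4 were Slc16a14 (-0.56 on the log2 scale), Slc16a3 (-0.45), Slc16a7 (-0.44) and Slc2a1 (-0.40), 3 members of the Slc16a family and 1 glucose carrier. Among all 11963 tested genes 2.52% were called lower and 5.53% higher, 8.04% in all, beside 16% of the tested members, all 4 in the lower direction. No member reached a 1.5-fold difference.

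The remaining 21 tested members did not pass. At an unadjusted p under 0.05 there were 9 members, 7 lower and 2 higher, beside 20.7% of all tested genes in either direction. The median log2 difference of the 25 was -0.08, beside 0.01 over all tested genes, and 16 of the 25 differences were negative. The arrays of the groups did not overlap for 17 of the 25, and 11 of those were lower and 6 higher in Id2 KO. Over all tested genes the corresponding shares without overlap were 22.8% lower and 27.9% higher, 50.7% in all. The differences ran from -0.56 (Slc16a14) to 0.42 (Slc16a6), both in the Slc16a family.

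**Figure D1:**
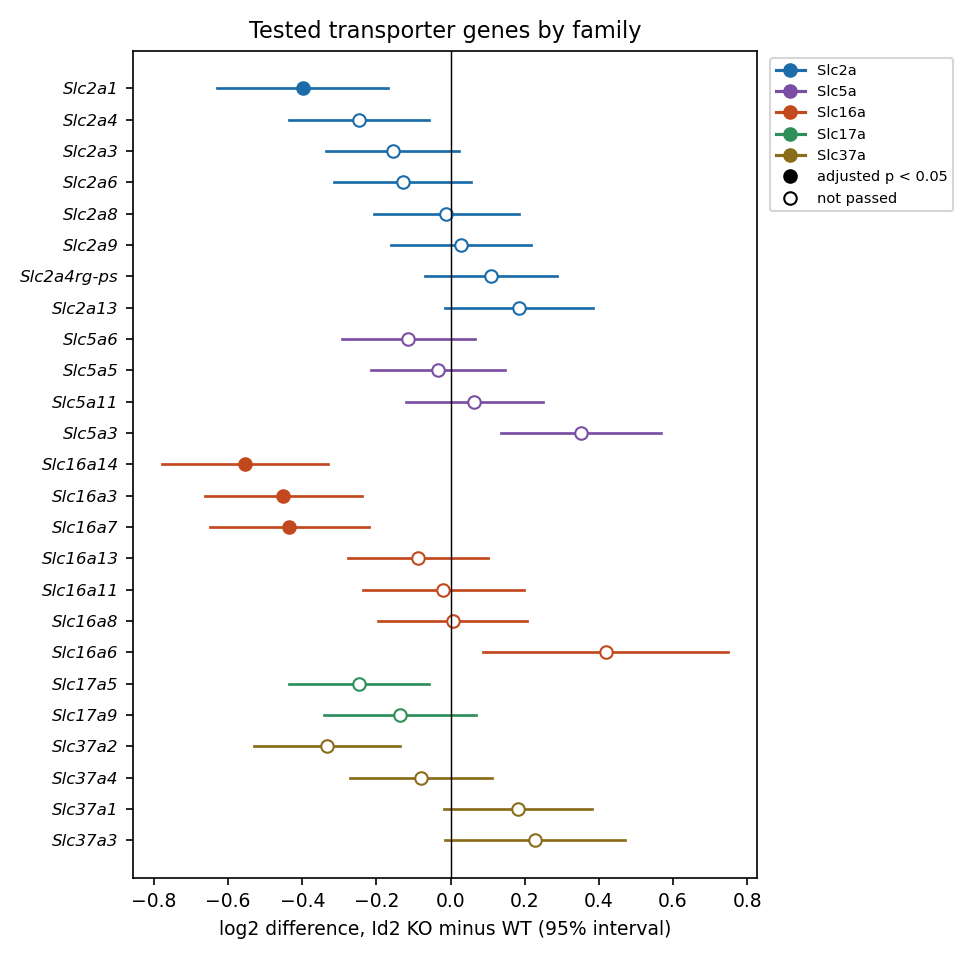
Log2 difference, Id2 KO minus WT, for the 25 tested members grouped by gene family, as points with 95% intervals from the limma fit (2 arrays per group, intervals not adjusted for the number of genes). Filled points passed at an adjusted p under 0.05, namely Slc2a1 and the Slc16a members Slc16a14, Slc16a3 and Slc16a7, all below 0.

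Among the monocarboxylate transporters, the largest difference was in Slc16a14, which encodes MCT14, an orphan member whose cargo is not settled. Its log2 intensity measured 8.41 and 8.24 on the WT arrays against 7.68 and 7.86 on the Id2 KO arrays. Both Id2 KO arrays were below both WT arrays, with a gap between the groups larger than the spread within either. The fall was 1.47-fold (difference -0.56, SE 0.10, 95% interval -0.78 to -0.33, adjusted p = 0.00886).

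Slc16a3 encodes MCT4, known as the main exporter of lactate from glycolytic cells. It stood at 8.29 and 8.08 in WT and at 7.74 and 7.73 in Id2 KO. The Id2 KO arrays were nearly the same and the WT arrays differed by more, yet the groups did not overlap. Slc16a3 fell 1.37-fold (difference -0.45, SE 0.09, 95% interval -0.66 to -0.24, adjusted p = 0.0183).

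Slc16a7 encodes MCT2, a carrier with high affinity for pyruvate and lactate. It was at 7.53 and 7.54 in WT and at 7.21 and 6.99 in Id2 KO, so that the WT arrays agreed closely and Id2 KO replicate 2 was the lowest. Slc16a7 fell 1.35-fold (difference -0.44, SE 0.09, 95% interval -0.65 to -0.22, adjusted p = 0.0237), and its Id2 KO levels lay close above the filter level, where no background was measured.

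Without WT replicate 1 no member passed, and the adjusted p was 0.0863 for Slc16a14, 0.169 for Slc16a3, 0.129 for Slc16a7 and 0.203 for Slc2a1, with differences of -0.47, -0.35, -0.44 and -0.41. Without WT replicate 2, Slc16a14 and Slc16a3 passed while Slc16a7 (adjusted p = 0.110) and Slc2a1 (0.176) did not.

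The other 4 tested members of the Slc16a family did not pass. Slc16a6, which encodes MCT7, a carrier linked to the export of ketone bodies, was at 8.26 and 8.40 in WT and at 8.99 and 8.50 in Id2 KO. Both Id2 KO arrays were the higher ones, but Id2 KO replicate 2 lay close to WT replicate 2. Its difference of 0.42 (95% interval 0.09 to 0.75) did not pass (adjusted p = 0.135), and it was 0.67 and passed without Id2 KO replicate 2 (adjusted p = 0.00282) but 0.17 without Id2 KO replicate 1 (adjusted p = 0.524). Slc16a13 (-0.09), Slc16a11 (-0.02) and Slc16a8, the MCT of the retinal pigment epithelium (0.01), did not pass, and the signs of Slc16a11 and Slc16a8 changed under some alternatives, that of Slc16a11 under both rescalings of the arrays.

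Slc16a1 encodes MCT1, the widely expressed lactate carrier, and it lay below the filter level and was not tested. It measured 6.59 and 6.64 on the WT arrays against 6.34 and 6.37 on the Id2 KO arrays, a difference of -0.26 (95% interval -0.45 to -0.07 without a filter). Slc16a10, a carrier of aromatic amino acids, was also below the filter at 6.52 on both WT arrays and at 6.37 and 6.20 in Id2 KO (difference -0.23, 95% interval -0.44 to -0.03). In each of these genes the Id2 KO arrays were below the WT arrays. Without background measurements the size of a difference at such levels is uncertain. The other Slc16a members below the filter were Slc16a4, Slc16a5, Slc16a9 and Slc16a12, and the dimmer of the 2 probe sets of Slc16a9 differed by -0.13 beside -0.06 for the brighter one.

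**Figure D2:**
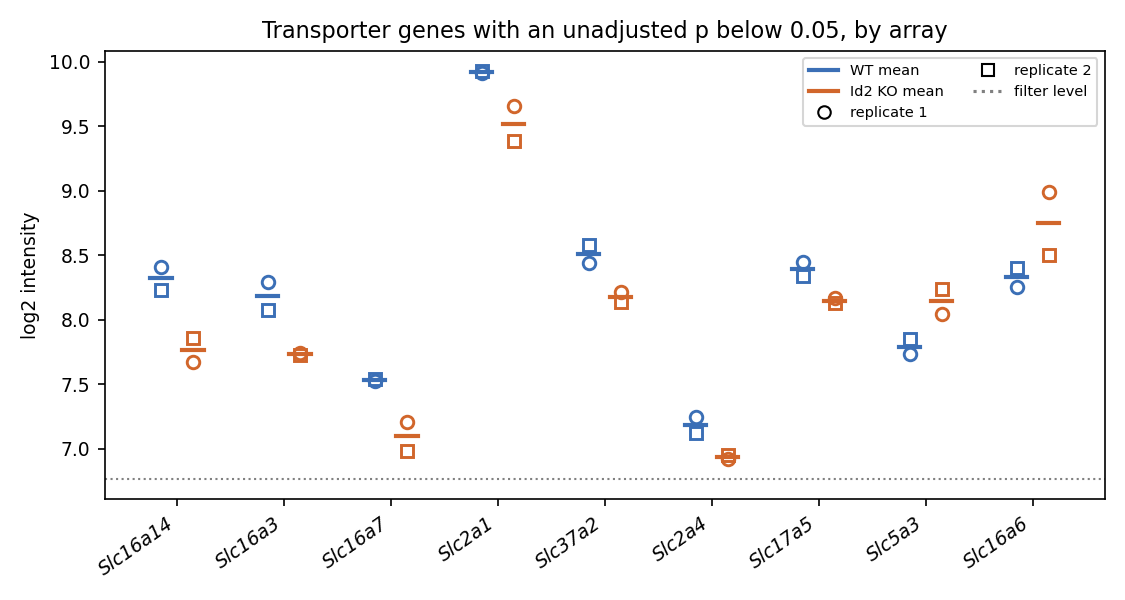
Log2 intensity on each of the 4 arrays for the 9 tested members with an unadjusted p under 0.05, with circles and squares for replicates 1 and 2, bars for the group means and a dotted line at the filter level of 6.77. In Id2 KO 7 genes lie lower and Slc5a3 and Slc16a6 higher, with no overlap between the groups, and heights should not be set against each other between genes because probe sets differ in brightness.

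Among the glucose transporters, Slc2a1, which encodes the basal glucose carrier GLUT1, was the single gene that changed. It was at 9.91 and 9.93 in WT and at 9.66 and 9.39 in Id2 KO. The WT arrays were nearly equal, and the Id2 KO arrays differed from each other by more than the WT arrays did. Slc2a1 fell 1.32-fold (difference -0.40, SE 0.10, 95% interval -0.63 to -0.17, adjusted p = 0.0471). With each array centred on its median the difference was -0.38 and did not pass (adjusted p = 0.0578), and without Id2 KO replicate 2 it was -0.26 (adjusted p = 0.145).

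The other GLUT genes above the filter did not pass. Slc2a3, the high-affinity glucose carrier GLUT3 of neurons and leukocytes, was at 10.97 on both WT arrays and at 10.79 and 10.84 in Id2 KO. The groups did not overlap, but the difference of -0.16 (95% interval -0.34 to 0.02) did not pass (adjusted p = 0.310). Slc2a6, which encodes GLUT6, a hexose carrier of intracellular membranes, was at 9.51 and 9.60 in WT and at 9.45 and 9.41 in Id2 KO (difference -0.13, 95% interval -0.31 to 0.06, adjusted p = 0.434). Slc2a4, the insulin-responsive carrier GLUT4, was at 7.24 and 7.13 in WT and at 6.92 and 6.95 in Id2 KO. Its difference of -0.25 had an interval below 0 (-0.44 to -0.06) and still did not pass (adjusted p = 0.122).

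Slc2a8, an intracellular hexose carrier, differed by -0.01 and Slc2a9, a urate carrier, by 0.03, and both groups overlapped in each gene. Their intervals (-0.21 to 0.18 and -0.16 to 0.22) leave room for changes of about the size of that in Slc2a3. Slc2a13, a carrier of myo-inositol with protons, was higher by 0.18 without passing (95% interval -0.02 to 0.38, adjusted p = 0.283). The pseudogene Slc2a4rg-ps differed by 0.11 (adjusted p = 0.500). Slc2a2, Slc2a5, Slc2a7, Slc2a10 and Slc2a12 lay below the filter, including the liver and beta cell carrier GLUT2 (Slc2a2) and the fructose carrier GLUT5 (Slc2a5).

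Listed promoters of the genes that fell are shown because E proteins, the partners of Id2, bind the E-box CANNTG, and because Slc2a1 and Slc16a3 are textbook targets of hypoxia-inducible factors, which bind ACGTG or GCGTG. The sequences are the 250 bases before 1 listed start of each gene, on the gene's strand from 5′ to 3′, from RefSeq on GRCm38.p6. Capitals mark the E-box and the 2 hypoxia motifs where found on either strand, and the last letter lies next to the start. Of the 52 members 40 had a listed promoter, and Slc16a7 had none.
Slc16a14 (chr1:84935084-84935333, minus strand): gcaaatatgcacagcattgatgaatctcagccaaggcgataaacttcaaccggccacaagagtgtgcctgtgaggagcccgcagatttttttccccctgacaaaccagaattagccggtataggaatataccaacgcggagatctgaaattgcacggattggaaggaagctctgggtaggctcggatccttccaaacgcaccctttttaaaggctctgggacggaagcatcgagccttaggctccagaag
Slc16a3 (chr11:120948817-120949066, plus strand): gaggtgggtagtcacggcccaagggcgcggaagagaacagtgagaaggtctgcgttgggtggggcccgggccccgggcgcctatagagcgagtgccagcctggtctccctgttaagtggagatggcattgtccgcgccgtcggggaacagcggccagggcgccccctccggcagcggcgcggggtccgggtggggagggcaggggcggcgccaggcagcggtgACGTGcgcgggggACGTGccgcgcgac
Slc2a1 (chr4:119108495-119108744, plus strand): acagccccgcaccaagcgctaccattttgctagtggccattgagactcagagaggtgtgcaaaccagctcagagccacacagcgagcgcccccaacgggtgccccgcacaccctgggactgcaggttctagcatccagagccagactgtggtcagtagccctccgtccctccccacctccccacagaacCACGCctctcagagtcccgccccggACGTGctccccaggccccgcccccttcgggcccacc

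In these windows CANNTG was found in none of the 3 genes. ACGTG was found at 27 to 23 and at 14 to 10 bases before the start of Slc16a3, and at 36 to 32 bases before that of Slc2a1, which also held GCGTG, read on the other strand, at 61 to 57 bases. The Slc16a14 window held no match. Over 32851 windows of the same length, 66.2% held CANNTG, 16.6% held ACGTG and 28.2% held GCGTG on either strand, and the shares over the 48 windows of members were 75%, 16.7% and 31.2%. CACGTG counts as both CANNTG and ACGTG. The more specific E-boxes CAGCTG (13% of all windows, 20.8% of those of members) and CAGGTG (17.2% and 22.9%) are contained in CANNTG. A match or its absence describes letters in this window only.

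Of the sodium-coupled Slc5a family, 4 of 13 members were tested and none passed, with 1 at an unadjusted p under 0.05. That one was Slc5a3, which encodes the sodium and myo-inositol carrier SMIT1. It was at 7.73 and 7.85 in WT and at 8.04 and 8.24 in Id2 KO, with no overlap. The difference of 0.35 (95% interval 0.14 to 0.57) did not pass (adjusted p = 0.0596), although with median-centred arrays it was 0.37 and did (adjusted p = 0.0420). Leaving out 1 array at a time moved it between 0.25 (without Id2 KO replicate 2, adjusted p = 0.180) and 0.45 (without Id2 KO replicate 1, adjusted p = 0.0286). The listed promoter of Slc5a3 held CAGCTG at 44 to 39 bases and CAAGTG at 126 to 121 bases before the start, and GCGTG at 240 to 236 bases and, read on the other strand, at 191 to 187 bases.

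Slc5a6, the carrier of the vitamins biotin and pantothenate, was at 7.58 and 7.55 in WT and at 7.43 and 7.47 in Id2 KO (difference -0.11, 95% interval -0.29 to 0.06, adjusted p = 0.479). The groups were separate, though the gap was small. Slc5a5, the iodide carrier of the thyroid, differed by -0.03 and Slc5a11, a second carrier of myo-inositol, by 0.06, with overlap in both. The intestinal and renal glucose carriers Slc5a1 and Slc5a2 lay below the filter, as did the lactate carriers Slc5a8 and Slc5a12, the choline carrier Slc5a7, and Slc5a4a, Slc5a4b, Slc5a9 and Slc5a10.

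The Slc37a family was the one family with all its members tested, and none of the 4 passed. Slc37a2, a sugar phosphate exchanger of the endoplasmic reticulum found in macrophages, was at 8.44 and 8.58 in WT and at 8.21 and 8.14 in Id2 KO. Both Id2 KO arrays were below both WT arrays. Its difference of -0.33 (95% interval -0.53 to -0.14, adjusted p = 0.0519) lay just outside the threshold, and it passed under 4 of 11 alternatives, among them renewed quantile normalization (adjusted p = 0.0203). The listed promoter of Slc37a2, searched like that of Slc5a3, held no E-box and no hypoxia motif.

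Slc37a1, another exchanger of this kind, was at 9.46 and 9.43 in WT and at 9.71 and 9.54 in Id2 KO (difference 0.18, 95% interval -0.02 to 0.38, adjusted p = 0.286). Slc37a3, a lysosomal member, was at 7.57 and 7.80 in WT and at 8.01 and 7.81 in Id2 KO, where the lower Id2 KO array lay next to the higher WT array (difference 0.23, adjusted p = 0.275). Slc37a4, the glucose 6-phosphate carrier that works with glucose 6-phosphatase, was at 7.29 and 7.34 in WT and at 7.17 and 7.30 in Id2 KO, with overlap (difference -0.08, adjusted p = 0.670). The values of Slc37a2 and of Slc37a1 and Slc37a3 thus had opposite signs, and the differences between these genes were not tested.

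Of the Slc17a family, 2 of 9 members were tested and none passed. Slc17a5 encodes sialin, which releases sialic acid from lysosomes. It was at 8.45 and 8.34 in WT and at 8.17 and 8.13 in Id2 KO, without overlap (difference -0.25, 95% interval -0.43 to -0.06, adjusted p = 0.123). Slc17a9, the vesicular nucleotide carrier, was at 7.60 and 7.74 in WT and at 7.47 and 7.60 in Id2 KO (difference -0.14, adjusted p = 0.462), and its groups met at WT replicate 1 and Id2 KO replicate 2. The vesicular glutamate carriers Slc17a6, Slc17a7 and Slc17a8 lay below the filter, as did the phosphate and urate carriers Slc17a1 to Slc17a4.

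Altogether 27 members lay below the filter, with means from 5.24 to 6.74 and differences from -0.28 (Slc17a3) to 0.17 (Slc2a12). The 95% interval, not adjusted for the number of genes, left out 0 for 3 of them, Slc16a1, Slc16a10 and Slc17a3, all lower. Over all tested genes 20.7% had an unadjusted p under 0.05, and the share over all dim genes was not counted. Beside that share, these 3 say little about the dim members. When no filter was set, all 52 members were fitted and 3 passed, Slc16a14, Slc16a3 and Slc16a7, all of them lower.

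None of the tested genes that act with the transporters passed. Of 45 genes in lists of chaperones, regulators and enzymes of the carried substrates, 30 were tested and 0 were called (limma, adjusted p under 0.05). There were 5 at an unadjusted p under 0.05, and the median log2 difference was -0.01. Over all tested genes 8.04% were called and 20.7% had an unadjusted p under 0.05. Beside these shares, such counts among 30 genes say little about the lists. Of the 3 chaperones of MCTs, Emb (embigin, which serves Slc16a7 in particular) was at 10.96 and 10.97 in WT and at 10.69 and 10.66 in Id2 KO. The groups were well apart for its small spread, and the difference of -0.29 (95% interval -0.46 to -0.11) did not pass (adjusted p = 0.0623). Bsg (basigin, the partner of MCT1 and MCT4) differed by 0.01 (95% interval -0.18 to 0.19) and Nptn (neuroplastin) by 0.16.

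Of 11 regulators of sugar transporters, none passed. Txnip, an arrestin family protein that removes GLUT1 from the cell surface, was at 12.51 and 12.49 in WT and at 12.35 and 12.42 in Id2 KO (difference -0.12, adjusted p = 0.479). Tbc1d4, which holds GLUT4 inside the cell, was at 10.11 and 10.19 in WT and at 10.41 and 10.48 in Id2 KO. The groups were apart, but the difference of 0.29 missed the threshold (adjusted p = 0.0670), as did those of its relative Tbc1d1 (0.31), of Hif1a, the oxygen-regulated factor (0.20, adjusted p = 0.323), and of Myc (0.32, adjusted p = 0.261).

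Of 7 tested genes of hexose phosphorylation, none passed. Hk1, the brightest of them, was at 12.22 and 12.07 in WT and at 12.13 and 12.20 in Id2 KO (difference 0.02, 95% interval -0.18 to 0.22). Hk3, a hexokinase of myeloid cells, was lower on both Id2 KO arrays (7.59 and 7.56 against 7.88 and 7.86, difference -0.30) without passing (adjusted p = 0.0545). Of 7 tested genes of lactate and pyruvate none passed, including Ldha, the lactate dehydrogenase subunit of glycolytic tissue (10.12 and 10.21 in WT, 10.36 and 10.18 in Id2 KO, difference 0.11) and the mitochondrial pyruvate carrier gene Mpc1 (-0.03). In the lists of myo-inositol and of thyroid hormone handling only Cdipt (-0.06) and Crym (-0.09) were tested, and neither passed.

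Markers of other cells differed between the same arrays. In bulk samples, fewer cells of a type and less RNA per cell cannot be told apart. The counts that follow are of tested genes, whereas the summed intensities cover every gene of a list that had a probe set, tested or not. Of 13 tested neutrophil genes 13 fell, with a summed intensity of the list of 18534 and 19223 in WT against 1808 and 2697 in Id2 KO. Of 9 tested red pulp macrophage genes 7 fell (summed 3687 and 4206 against 2678 and 2732), of 7 monocyte genes 4 fell (12106 and 13179 against 11127 and 11084), and of 4 erythroid genes 2 fell (1357 and 1618 against 829 and 895). The monocyte genes that fell were Cd14, Lyz2, Chil3 and Fn1. Csf1r (0.04), Cx3cr1 (0.09) and Nr4a1 (-0.13) did not pass. Nr4a1 was the brightest of the monocyte list and weighed most in its sum. Of 9 B cell genes 8 rose and 1 fell (2485 and 2474 against 3400 and 3729), of 7 plasmacytoid dendritic cell genes 4 rose (2367 and 2323 against 2891 and 2690), and of 5 T and NK cell genes 1 fell (1020 and 1051 against 912 and 918). The B cell gene that fell was Cd22, at 10.27 on both WT arrays and at 9.73 and 9.68 in Id2 KO. Cd22 was the brightest of the B cell list and weighed most in its sum.

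Of 12 cell cycle genes 11 rose, with sums of 8318 and 8354 in WT against 17797 and 14124 in Id2 KO. Some of the transporters are known in the cells of these lists, such as Slc2a3 and Slc16a3 in neutrophils, Slc2a1 in human erythroid precursors and Slc37a2 in macrophages. The part of these cells in the falls of Slc16a14, Slc16a3, Slc16a7 and Slc2a1 was not tested. Ly6g of the neutrophil list, Cd163, Mertk and Cd5l of the macrophage list, Ccr2 and F13a1 of the monocyte list, Klf1 of the erythroid list and Ebf1 of the B cell list lay below the filter. Some counted markers had Id2 KO means below the filter level, among them Mmp8 (5.49), Mpo (6.52), Prtn3 (6.59), Cxcr2 (6.52), Chil3 (6.45) and Slc40a1 (6.19). The B cell genes Cr2 (6.26) and Fcer2a (6.73) had WT means below it. Such genes entered the test only through the group where they were bright, so the filter partly fixes the counts of lower and higher markers.

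**Figure D3:**
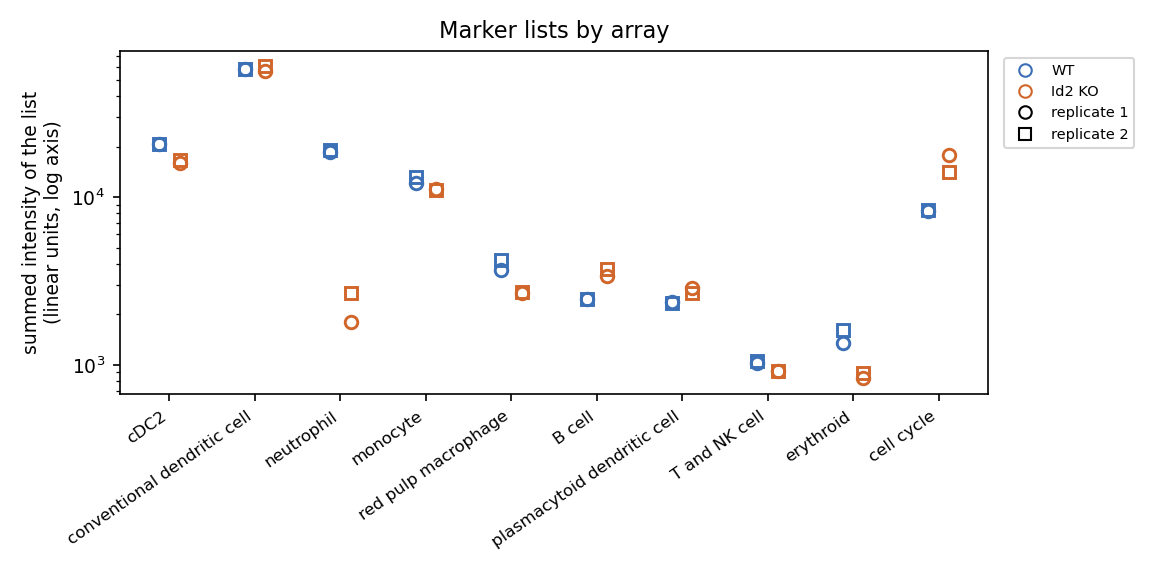
Summed intensity of each marker list (linear units on a log axis) on the 4 arrays, with circles and squares for replicates 1 and 2. The neutrophil list shows the widest gap, from 18534 and 19223 in WT to 1808 and 2697 in Id2 KO, while the sums of the conventional dendritic cell list overlap between the groups and those of the cDC2 list, lower in Id2 KO, do not.

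**Figure D4:**
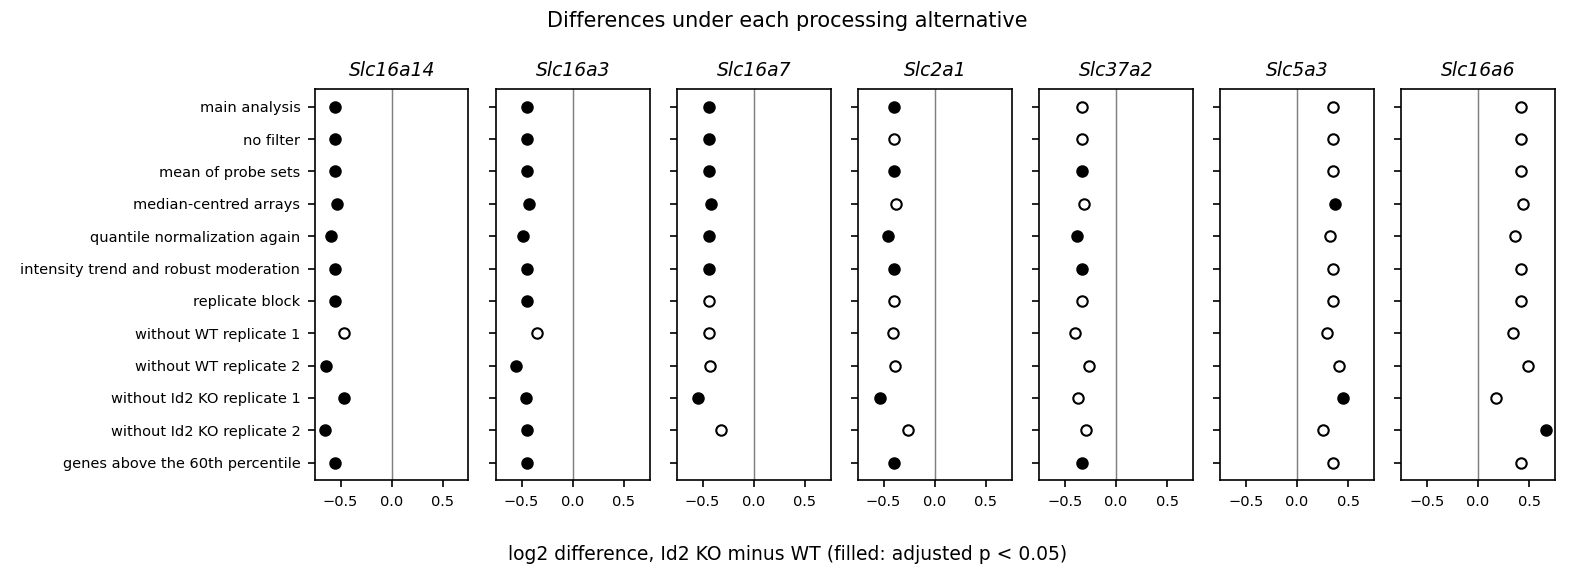
Log2 difference, Id2 KO minus WT, of 7 members under the main analysis and each alternative setting, with filled points where the adjusted p was under 0.05 (Slc16a7 was not tested above the 60th percentile). The points of each gene keep one sign throughout, Slc16a14 and Slc16a3 are filled in all but the analysis without WT replicate 1, and Slc2a1 is filled in 5 of 11 alternatives.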

How the data were processed

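RNA of 4 samples was hybridised to Affymetrix arrays, 1 per sample. Per the labels' protocols, cells were sorted after red cell lysis and cDNA was made with a NuGen amplification kit. The deposited values are linear intensity values per probe set; the submitters' processing notes name Affymetrix Expression Console and RMA without version or role. Scale and normalization are otherwise not stated, and the genome build is not given in the sources used here. Of 28853 probe sets, 21789 had 1 symbol in the platform annotation, 1621 had several and 5443 were not listed.

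Log2 was taken without a pseudocount. The 11963 genes whose mean exceeded the 40th percentile entered a limma 3.58.1 fit (lmFit and eBayes, R 4.3.3) of Id2 KO minus WT, two-sided, with Benjamini-Hochberg adjustment over all of them and a threshold of 0.05. Intervals are 95% intervals of that fit. Precision is limited by having 2 arrays per group. The procedure was tested on simulated data. Members and lists were chosen with earlier results of these data known. Named genes were members past the threshold, the 6 others with the largest difference, 14 transporters fixed by name, and the brightest and any passing partner gene. Genes named beyond that rule, and the promoter motifs, were chosen after their values were seen. Partner genes not matched to a probe set by symbol were not analysed here. Alternatives were other filters, probe set averaging, rescaling, moderation, a replicate block and leaving out each array.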

Additional observations from a re-analysis of the deposited data

How the results depend on the processing

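The number of changed members was 4, all lower, and stood between 3 and 5 under another filter, averaged probe sets, rescaled arrays and another moderation, where Slc37a2 (lower) joined under 4 settings and Slc5a3 (higher) with median-centred arrays. Leaving out 1 array at a time gave 0 to 5 changed members and 459 to 1171 changed genes of all tested. With the replicate number as a block, 2 members passed (Slc16a14 and Slc16a3), while Slc16a7 (adjusted p = 0.0547) and Slc2a1 (0.0878) did not. The labels do not say that the numbers pair the samples, and deviations of same-numbered arrays correlated at -0.14. Crossing the pairing, a choice made after seeing the data, gave 7 members, 5 lower and 2 higher, and 1380 genes. Of the partner genes, 0 passed, beside 1 above the 60th percentile (Hk3), 2 with renewed quantile normalization (Emb and Hk3, lower), 2 with an intensity trend (Emb lower, Tbc1d4 higher) and 0 to 1 with an array left out. Slc2a1 also lost its call without a filter (adjusted p = 0.0823) and Slc16a7 without Id2 KO replicate 2 (0.0737). No member that passed under any of these settings changed sign. Signal over background was not measured, which limits the 27 dim members.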
